A study of Mus musculus with 24 samples.

Results

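The T cell checkpoint and regulatory genes examined here were the inhibitory receptors Pdcd1, Ctla4, Lag3, Havcr2 and Tigit, the PD-1 ligand Cd274, the costimulatory receptors Cd28 and Icos, and the transcription factors Foxp3 and Ikzf2. They were chosen by name: every array probe that carried one of these 10 symbols was taken, which gave 13 of 39429 probes and 10 of 29742 genes on the array. Pdcd1, Ctla4, Lag3, Havcr2, Tigit, Cd274, Cd28 and Foxp3 had 1 probe each, Ikzf2 had 2 and Icos had 3. Of the 10 genes, 9 entered the test together with 17805 genes in all, and Tigit did not because its probe was not above background on 7 of the 24 arrays.

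The blood came from 24 male C57BL/6J mice, each measured on its own array. Young mice aged 2 months and old mice aged 21 months were left unirradiated or received 4 Gy of x-rays over the whole body, which made 4 groups of 6. Heart blood was taken 24 h after exposure into a lysing solution, so every array holds the RNA of all blood cells together. In such bulk samples a smaller number of cells of one type and less RNA per cell cannot be told apart. The young and the old mice were on different slides that were scanned on different days, and the effects of age and of scanning day cannot be told apart.

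A T cell is activated when its antigen receptor is engaged and CD28 or ICOS delivers a second, costimulatory signal. PD-1, CTLA-4, LAG-3, TIM-3 and TIGIT, the products of Pdcd1, Ctla4, Lag3, Havcr2 and Tigit, are induced on activated T cells and dampen them, and they stay high on chronically stimulated, exhausted T cells. Foxp3 defines regulatory T cells, which suppress other T cells and also carry CTLA-4, ICOS and Helios, the product of Ikzf2. PD-L1, the product of Cd274, binds PD-1 and is present on macrophages, monocytes, dendritic cells and many other cells exposed to interferon gamma.

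Levels are given as log2 of the background-subtracted signal minus the median log2 signal of the same array, so 1 unit is a doubling and 0 is the array's median spot. A gene was called a differentially expressed gene (DEG) where limma's moderated test gave a p under 0.005 and a Benjamini-Hochberg adjusted p under 0.05 over all genes tested. Levels of different genes come from different probes and were not compared with each other. Median signals of the arrays lay between 8.66 and 44.8 intensity units, and the 2 lowest were those of old irradiated replicates 4 and 6 (8.66 and 8.84). These 2 arrays also differed less from each other (spread of the log2 difference 0.263) than from the other old irradiated arrays (1.46 to 1.68), so the results in old irradiated mice are given with and without them. Hepatocyte markers stood high on 6 irradiated arrays, with Alb above 10 on young irradiated replicates 2, 4 and 5 and on old irradiated replicates 2, 3 and 5. Alb was also present at 6.62, 4.68 and 8.59 on young unirradiated replicates 3, 4 and 5. Fits described below as without the arrays high in Alb left out the 6 irradiated arrays and kept these. Of 8 B cell markers all 8 fell in irradiated young and 7 in irradiated old mice. Cdkn1a, the p53 target that marks radiation exposure, lay between 4.23 and 5.72 in all 12 irradiated mice and between -0.53 and 1.85 in all 12 unirradiated mice.

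**Figure D1:**
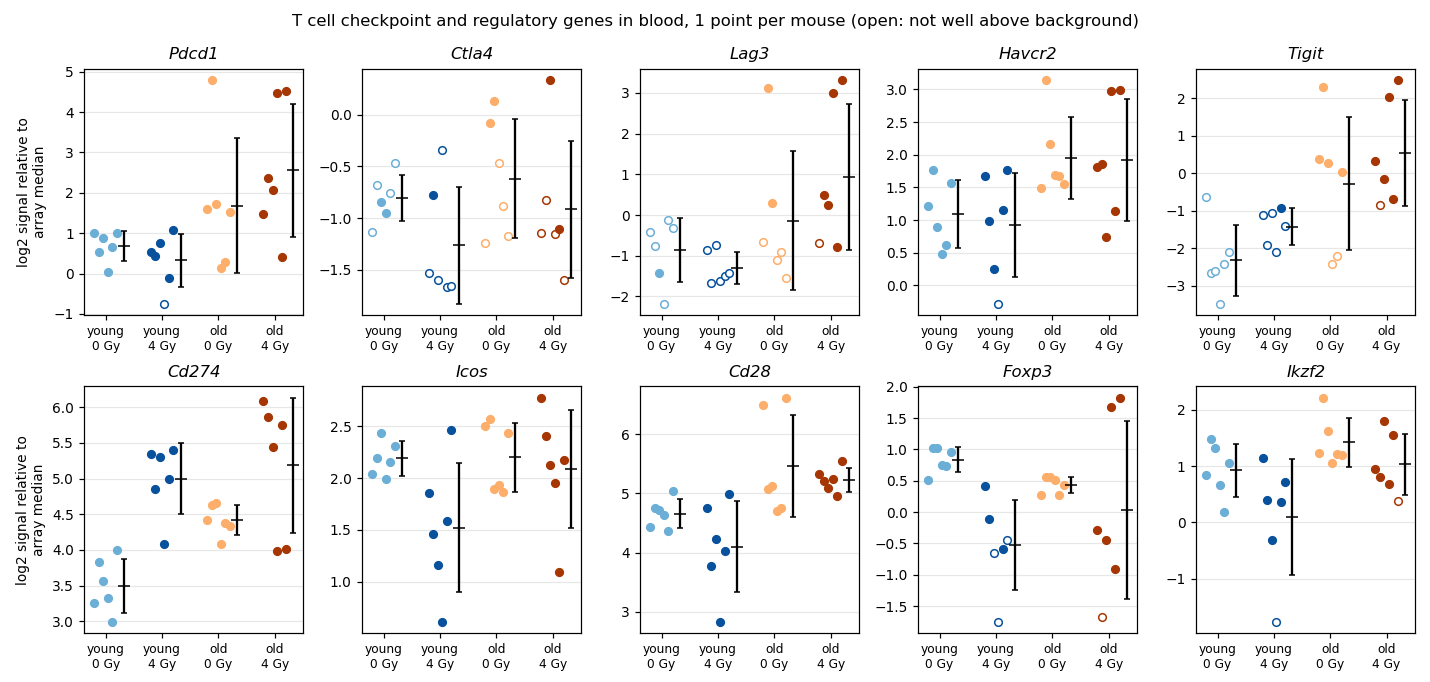
Level of each of the 10 genes in every mouse, as log2 signal relative to the array median (y axes differ between panels), in young and old mice given 0 or 4 Gy. Points are mice, open points are signals not well above background, and the black cross and bar are the mean and SD of the 6 mice; Cd274 rose and Foxp3 fell in all 6 irradiated young mice, and 3 old mice stood apart for Pdcd1, Lag3, Havcr2 and Tigit.

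Cd274 was the member with the largest change after irradiation of young mice. Its level was between 3.0 and 4.00 (median 3.45) in the 6 unirradiated young mice and between 4.08 and 5.41 (median 5.15) in the 6 irradiated young mice. All 6 irradiated mice stood above all 6 unirradiated mice. The rise was 1.5 on the log2 scale (SE 0.246, 95% confidence interval 0.97 to 2.03), or 2.83-fold, with an adjusted p of 0.000356 by limma. On the 1 slide that held both treatments, with 2 young mice of each, the difference was 1.60.

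The probe that measured Cd274 lies on chromosome 19 of mm9, at chr19:29462363-29462422 on the plus strand. Its first 30 of 60 bases and the 250 bases before the start of Cd274 in RefSeq (GRCm38.p6, chr19:29367188-29367437, plus strand) are shown because Cd274 is the member that rose. Capitals mark the only copy of GAAANNGAA, the core of the element bound by interferon regulatory factors, which here is read on the opposite strand and begins 76 bases before the start.
Cd274 probe: ttgatgagtctcatgttaatgtcttgtttg
Cd274 promoter: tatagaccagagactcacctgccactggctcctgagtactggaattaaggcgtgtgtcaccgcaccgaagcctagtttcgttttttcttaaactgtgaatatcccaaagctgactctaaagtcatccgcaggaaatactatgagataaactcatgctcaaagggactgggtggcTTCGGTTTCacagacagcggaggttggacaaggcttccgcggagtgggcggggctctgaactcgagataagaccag
GAAANNGAA, searched on both strands, occurred in 2342 of 32851 promoter windows of the same length (7.13%). Of the 10 members 6 had a window in the table, and 2 of these, Cd274 and Ctla4, held the motif. TTCNNNGAA, the element bound by STAT proteins, was in 2306 windows (7.02%) and in 1 of the 6 members, in the second of the windows of Foxp3. A match is a string of letters and was not tested as a binding site.

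Among 20 tested genes of the interferon gamma response, 3 rose and 3 fell in irradiated young mice, with a median change of -0.09 against -0.20 for all genes. B2m, the light chain of class I antigen-presenting molecules, rose by 1.13 (SE 0.20, adjusted p 0.000595 by limma). Irf1, a transcription factor induced by interferon gamma, changed by -0.17 (adjusted p 0.548), the receptor chain Ifngr1 by -0.12 (adjusted p 0.650) and the kinase Jak1 by -0.02 (adjusted p 0.957). The genes whose levels ran closest to Cd274 over the 24 arrays were Rnf19b (Pearson r 0.969) and Irgm2 (0.964), the latter an interferon-induced GTPase. Rnf19b was between 5.91 and 6.64 in unirradiated young mice and between 6.88 and 8.47 in irradiated young mice. Irgm2 was between 3.96 and 5.02 in unirradiated and between 5.76 and 6.42 in irradiated young mice. Both genes were picked by their likeness to Cd274.

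Markers of cells that can carry PD-L1 moved in the same mice. The mean level of 8 tissue macrophage markers was between -0.03 and 3.79 in unirradiated and between 4.01 and 6.51 in irradiated young mice, and 6 of the 7 that were tested rose. The mean of 7 monocyte markers was between 4.70 and 5.34 in unirradiated and between 6.01 and 6.31 in irradiated young mice, with 3 of 7 higher and 1 lower. Dendritic cell markers went the other way, with a mean between 3.93 and 4.25 in unirradiated and between 3.05 and 3.93 in irradiated young mice, 4 of 6 lower and 1, Clec9a, higher. The part of these cells in the rise of Cd274 was not tested. Without the 3 young irradiated arrays with high Alb, the rise of Cd274 was 1.85 (adjusted p 0.000133 by limma).

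In old mice the same comparison split the irradiated group. Cd274 was between 4.08 and 4.65 (median 4.39) in unirradiated old mice, while in irradiated old mice it was between 3.98 and 6.09 (median 5.60). Replicates 1, 2, 3 and 5 lay at 6.09, 5.86, 5.45 and 5.75, above every unirradiated old mouse, whereas replicates 4 and 6 lay at 3.98 and 4.01, below all of them. The difference was 0.77 (SE 0.387, 95% confidence interval -0.06 to 1.61) with an adjusted p of 0.138 and did not pass the test. Without replicates 4 and 6, a choice made after seeing the data, it was 1.37 with an adjusted p of 0.000306. It also passed with 2 other scalings of the arrays, at 1.08 with the 75th percentile and 1.12 with the median of bright probes. It did not pass with quantile normalization (0.99, adjusted p 0.0217), in the deposited table (1.03, adjusted p 0.0531) or with normexp background correction (1.15, adjusted p 0.362).

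The same 2 mice had the lowest monocyte marker means of the old irradiated group, 3.88 and 4.15 against 6.39 to 6.95 in the other 4. Their red cell marker means were 12.87 and 12.88 against 8.97 to 9.98 in the other 4. These markers include the globin genes Hbb-bt and Hba-a1, and globin RNA had been reduced in all samples before labelling. Tissue macrophage and hepatocyte marker means did not set the 2 mice apart in the same way: they were 2.23 and 2.47 and 3.52 and 3.09, higher than in replicate 1 (-0.15 and 0.14), which had the highest Cd274, and lower than in replicates 2, 3 and 5 (4.79 to 6.08 and 9.14 to 10.02). On the slide with both treatments of old mice, which held neither of them, the Cd274 difference was 1.62 between 2 irradiated and 2 unirradiated mice. The response of old mice minus that of young mice was -0.72 (SE 0.466, adjusted p 0.322), and -0.13 without replicates 4 and 6.

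Foxp3 fell in irradiated young mice. Its level was between 0.52 and 1.03 (median 0.86) in unirradiated and between -1.75 and 0.41 (median -0.52) in irradiated young mice. The groups did not overlap, and only 3 of the 6 irradiated mice had a signal well above background. The fall was 1.36 on the log2 scale (SE 0.285, 95% confidence interval of the change -1.97 to -0.74, adjusted p 0.00188 by limma), or 2.56-fold. On the slide with both treatments the difference was -0.70, and with the slide as a fixed term neither Foxp3 (adjusted p 0.287) nor Cd274 (1.60, adjusted p 0.0505) passed the test.
Foxp3 probe: attatgtgttggagtgtgcctgaacagctc
These are the first 30 of 60 bases of the Foxp3 probe at chrX:7172301-7172360 of mm9 on the plus strand, shown because Foxp3 is the member that fell.

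Foxp3 in irradiated old mice was between -1.68 and 1.82 (median -0.37), against 0.27 to 0.56 (median 0.47) in unirradiated old mice. Replicates 4 and 6 again stood apart, at 1.68 and 1.82, above all unirradiated old mice, while the other 4 lay below all of them. The difference was -0.40 (SE 0.533, adjusted p 0.577). Without the 2 replicates it was -1.26 with an adjusted p of 0.00224, and the old minus the young response changed from 0.95 (adjusted p 0.332) to 0.10 (adjusted p 0.942).

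Ikzf2 gave -0.83 in irradiated young mice (SE 0.417, adjusted p 0.121) and -0.39 in irradiated old mice (SE 0.304, adjusted p 0.334). A second probe of Ikzf2 gave -0.07 and -0.51. Of the 20 tested genes that are enriched in regulatory T cells, other than the members, 4 rose and 3 fell in irradiated young mice, with a median of 0.13. Gzmb, a granule protease that natural killer cells and killer T cells also use, rose by 1.94 (adjusted p 0.000895), whereas Il2rb changed by 1.15 without passing (adjusted p 0.0168), Capg by 0.25 and Ebi3 by -0.01. After irradiation of old mice 1 of the 20 rose and 1 fell.

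**Figure D2:**
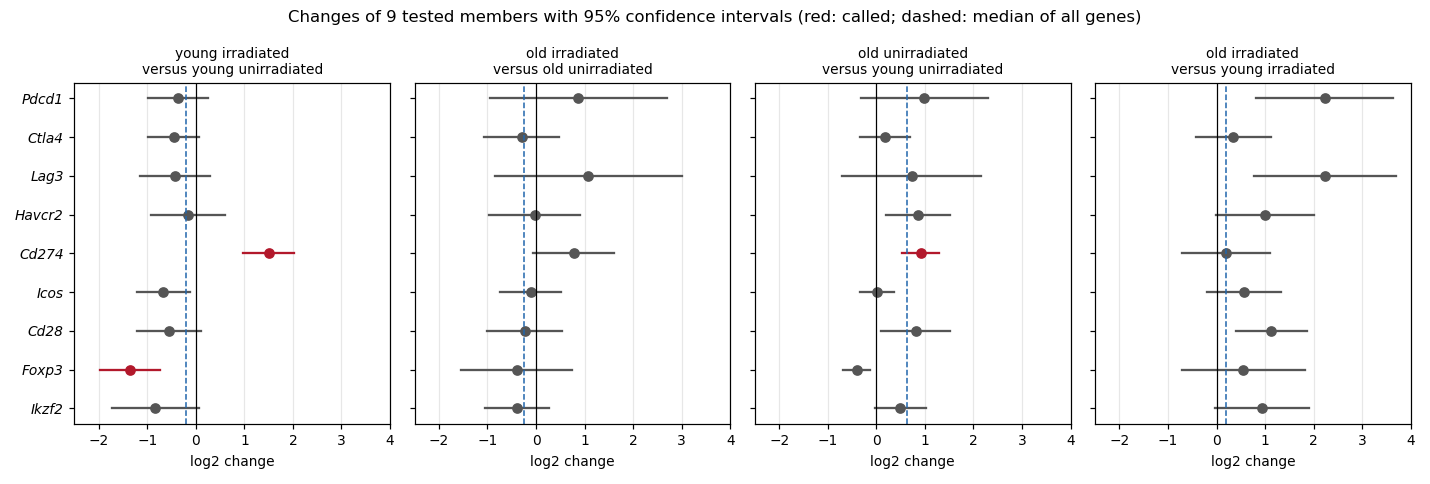
Log2 change of the 9 tested genes in the 4 comparisons of groups, with 95% confidence intervals from limma on the x axis. Red marks the genes that passed the test, Cd274 and Foxp3 in irradiated young mice and Cd274 in old against young unirradiated mice, and the dashed line is the median change of all 17805 genes.

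Taking the 9 tested genes together, 1 rose and 1 fell in irradiated young mice, while 35.4% of all genes tested were DEGs in that comparison (14.3% higher and 21.1% lower). Groups did not overlap for Cd274 and Foxp3, as for 24.6% of all genes. The change was positive for 1 and negative for 8 of the 9, with a median of -0.46 against -0.20 over all genes. In irradiated old mice none of the 9 passed limma's test, and 0 of 9 had an unadjusted p < 0.05, against 24.9% and 44.8% of all genes. A random variance test and limma with trended, robust variances also called 0. None of the 9 responses differed between the ages, by limma or the random variance test, with 0 of 9 members and 23.6% of all genes at an unadjusted p < 0.05 and 0% of all genes called.

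The costimulatory receptors gave small values. Icos was between 2.00 and 2.44 (median 2.17) in unirradiated and between 0.62 and 2.46 (median 1.52) in irradiated young mice. Replicate 6 of the irradiated mice reached the top of the unirradiated range and the other 5 lay below the lowest unirradiated mouse. The difference was -0.67 (SE 0.253, adjusted p 0.0451) and missed the threshold of 0.005 with a p of 0.0205, and without that replicate it was -0.85 and passed (adjusted p 0.00555). The old mice gave -0.11 (SE 0.294, adjusted p 0.784).

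Icos had 3 probes in the order given here, at chr1:61055103-61055162, chr1:61057105-61057164 and chr1:61052582-61052641 of mm9, plus strand. Their first 30 bases are shown because they did not read alike.
Icos probe A_51_P371279: tagaaccaacatgctctcttccaattccta
Icos probe A_55_P1991773: cttctccattgtaaagggattctgctcctg
Icos probe A_55_P2006625: gaattttcactttaactgggcttatgtact
The first gave the values above. The second gave -0.76 in irradiated young and -0.05 in irradiated old mice and did not enter the test, because it differed by 1.5-fold from its median on only 3 arrays. The third was well above background on 5 of 24 arrays and gave -0.52 and 0.35.

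Cd28 was between 4.36 and 5.04 (median 4.67) in unirradiated and between 2.84 and 5.0 (median 4.13) in irradiated young mice. The ranges overlapped, and the difference was -0.55 (SE 0.306, adjusted p 0.157). Unirradiated old mice lay between 4.71 and 6.62 (median 5.10) and irradiated old mice between 4.96 and 5.55 (median 5.22), a difference of -0.24 (SE 0.362, adjusted p 0.633). Unirradiated old replicates 1 and 6 carried the 2 highest Cd28 levels of the series, 6.50 and 6.62, and also the 2 highest levels of Cd3d, 8.89 and 8.97, which encodes a chain of the T cell receptor complex. The spread of their log2 difference was 0.149, the second smallest of any pair within a group. The genes closest to Cd28 over the 24 arrays were Apol7b (Pearson r 0.960) and Ms4a4b (0.954), and Icos ran closest to Cd3g (0.874).

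Of 11 other costimulatory receptors, 2 rose and 5 fell in irradiated young mice, with a median change of -0.74. Cd5 fell by 1.89 (adjusted p 0.000404) and Cd2, an adhesion receptor of T and NK cells, fell by 0.96 (adjusted p 0.000469), whereas Cd226 rose by 2.14 (adjusted p 0.000133) and Slamf1 by 2.00 (adjusted p 0.000336). Of the 2 that rose, Cd226 is carried by platelets and NK cells as well as T cells, and all 6 platelet markers and 5 of 6 NK cell markers also rose. In the paper's blood counts, however, platelets changed little with irradiation at either age. The part of these cells in the rise of Cd226 was not tested. Old mice also gave 3 calls among these receptors: Cd226 rose by 1.46 (adjusted p 0.0139) and Slamf1 by 2.2 (adjusted p 0.000138), and Cd2 fell by 1.56 (adjusted p 0.00218).

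Of 29 tested genes that act downstream of CD28 and ICOS, 3 rose and 9 fell in irradiated young mice, with a median of -0.45. Lck, the kinase that starts signalling at the T cell receptor, fell by 1.04 (adjusted p 0.0108), and Ptpn11, a phosphatase recruited by PD-1 and found in most cells, rose by 1.69 (adjusted p 0.000410). In irradiated old mice 2 rose and 6 fell, with Lck at -0.73 (adjusted p 0.153) and Ptpn11 higher by 1.27 (adjusted p 0.00344).

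None of the tested inhibitory receptors passed the test for irradiation at either age. In young mice Pdcd1 was between 0.04 and 1.02 (median 0.76) in unirradiated and between -0.75 and 1.08 (median 0.48) in irradiated animals. The difference was -0.36 (SE 0.288, 95% confidence interval -0.98 to 0.26, adjusted p 0.33). Havcr2, whose product is also present on monocytes and dendritic cells, gave -0.16 (SE 0.356, 95% confidence interval -0.93 to 0.61), and Lag3 (-0.43) and Ctla4 (-0.46) were measured near background, with 0 of 6 and 1 of 6 irradiated young mice well above it. Without the 3 arrays with high Alb, Ctla4 gave -0.79 and was called (adjusted p 0.00322). The irradiated arrays kept in that fit, replicates 1, 3 and 6, lay at -1.53, -1.60 and -1.66. None of them was well above background, and 2 of 6 unirradiated young mice were.

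In old mice 3 animals stood above all others for 4 of the 5 inhibitory receptors. Pdcd1 was 4.80 in unirradiated old replicate 2 and 4.46 and 4.53 in irradiated old replicates 4 and 6, while the other 9 old mice lay between 0.14 and 2.36. Lag3 was 3.12, 3.01 and 3.32 in the same 3 mice, Havcr2 was 3.15, 2.98 and 3.0, and Tigit was 2.30, 2.05 and 2.50. The highest values elsewhere in the series were 0.50 for Lag3, 2.16 for Havcr2 and 0.40 for Tigit. These levels depend on the array medians, which were lowest for irradiated old replicates 4 and 6. Before centring, Havcr2 signals of these 2 arrays were 68.5 and 70.6 units, within the 55.4 to 76.5 of their group. Their uncentred signals of Pdcd1 (190.7 and 204.5), Lag3 (69.7 and 88.6) and Tigit (35.8 and 49.9) were the 2 highest of that group. Ctla4 reached 0.34 in irradiated old replicate 3 and 0.13 in unirradiated old replicate 3, and was well above background in 2 of 6 mice of each old group.

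**Figure D3:**
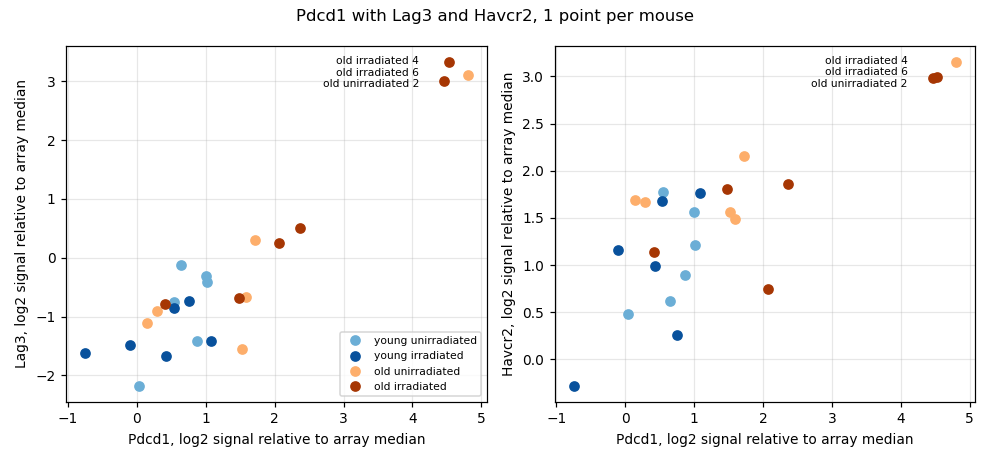
Lag3 (left) and Havcr2 (right) against Pdcd1 in the 24 mice, all as log2 signal relative to the array median, coloured by group. The 3 labelled old mice have Pdcd1 above 4 and the highest Lag3 and Havcr2 values, and the other 21 mice lie below 2.5 on the Pdcd1 axis.

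Over all 24 arrays the Pearson correlation of Pdcd1 was 0.93 with Lag3 and 0.80 with Havcr2, values in which these 3 mice are the extremes and that carry no test. The genes closest to Pdcd1 were Gzmk (0.887), a granule protease of memory and effector killer T cells, and Tox (0.885), a transcription factor of exhausted T cells. Gzmk was 6.30, 6.21 and 6.25 in the 3 mice, between 2.00 and 4.92 in the other old mice and between -1.29 and 2.63 in young mice. Tox was 4.34, 4.21 and 4.27 in the 3 mice, and between 1.73 and 3.02 in the other old mice. Cd8a was 4.67, 5.09 and 5.13 in these mice, and unirradiated old replicates 1 and 6 had higher Cd8a (5.68 and 5.88) with Pdcd1 at 1.59 and 1.53. Cd8b1, the other CD8 chain, was 5.77 in unirradiated old replicate 2 and 7.45 and 8.0 in irradiated old replicates 4 and 6, against 7.15 and 6.98 in unirradiated old replicates 1 and 6 and 4.35 to 5.13 in the other irradiated old mice. The T cell marker mean of unirradiated old replicate 2 was 5.66, within the 5.06 to 6.36 of its group, while those of irradiated old replicates 4 and 6, 5.68 and 5.71, were the 2 highest of theirs, above 4.64 to 5.25 in the other 4.

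With such spread, irradiated old mice differed from unirradiated old mice by 0.87 for Pdcd1 (SE 0.846, 95% confidence interval -0.95 to 2.70, adjusted p 0.438). Lag3 gave 1.07 (SE 0.892, adjusted p 0.365), Havcr2 gave -0.03 and Ctla4 gave -0.30. Without replicates 4 and 6 of the irradiated mice these values were -0.10 for Pdcd1, -0.04 for Lag3 and -0.57 for Havcr2, and none passed the test. Tigit, fitted without a filter on dim probes, gave 0.90 in young and 0.81 in old irradiated mice (adjusted p 0.132 and 0.595). In that fit 20.7% and 15.6% of all genes were called. The Tigit probe was well above background in only 0 of 6 unirradiated and 1 of 6 irradiated young mice. Without old irradiated replicates 4 and 6 its means were -0.33 in irradiated and -0.27 in unirradiated old mice.

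Among 12 further inhibitory receptors, 5 rose and 2 fell in irradiated young mice, with a median of 0.72. The 4 with the highest signal included Pilra, a receptor of myeloid cells (1.62, adjusted p 1.12e-05), Lilrb4a, also myeloid (1.26, adjusted p 5.84e-05), and Vsir, which encodes VISTA (0.61, adjusted p 0.00191), while Cd244 gave 0.22 without passing (adjusted p 0.176). Irradiated old mice had 1 of the 12 changed, and it fell. The ligands of these receptors, 17 tested, gave 3 higher and 3 lower in irradiated young mice, with Lgals9, a ligand of TIM-3, higher by 1.32 (adjusted p 0.000129). Of the 17 in irradiated old mice 4 changed and all 4 fell, among them Cd48, the ligand of CD244 and CD2, which fell by 1.37 (adjusted p 0.00135).

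Transcription factors of exhausted and effector T cells gave 3 higher and 6 lower of 18 in irradiated young mice. Lef1, which marks naive T cells and also B cell precursors, fell by 2.2 (adjusted p 0.000139), and Id2 rose by 1.60 (adjusted p 0.000113). In irradiated old mice 5 of the 18 changed and all 5 fell, with Lef1 lower by 1.98 without overlap of the groups (adjusted p 0.00804). The genes that lie next to members on the chromosomes gave 1 higher and 1 lower of 5 in irradiated young mice, with Jak2, near Cd274, at 0.75 (adjusted p 0.0219, not called).

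T cell markers themselves fell in irradiated young mice. Of 11 such markers 9 fell, with a median change of -1.52, and the list mean was between 5.26 and 5.73 in unirradiated and between 3.23 and 4.90 in irradiated young mice. Cd3d was between 7.08 and 7.40 and between 4.65 and 6.71. In irradiated old mice 1 of 11 fell, with a median of -0.41. Each member was therefore also expressed relative to the mean of Cd3d, Cd3e and Cd3g on the same array, a ratio that is the same under any scaling that shifts a whole array. The Cd3e spot was missing on 1 array, young unirradiated replicate 4, where the mean was taken over the other genes. This ratio shows only that members and Cd3 genes changed unequally.

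**Figure D4:**
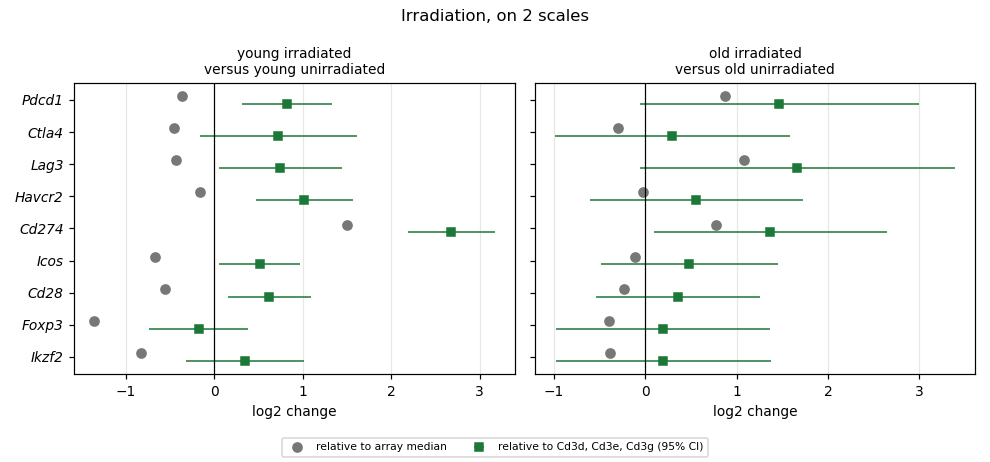
Change with irradiation of the 9 tested genes in young (left) and old (right) mice, relative to the array median (circles) and relative to Cd3d, Cd3e and Cd3g on the same array (squares, with 95% confidence intervals). By construction every gene in young mice moved to the right by the same amount, about the fall of the Cd3 genes, and Foxp3 came to lie near 0.

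On this scale 3 of the 9 members were higher in irradiated young mice, while 43.5% of all genes were called (42.5% higher and 0.966% lower), and the median of all genes was 0.98 against 0.72 for the members. Cd274 was between -3.91 and -3.13 in unirradiated and between -1.12 and -0.40 in irradiated young mice, a rise of 2.68 (SE 0.230, adjusted p 3.19e-07), or 6.39-fold. Havcr2 rose by 1.02 (SE 0.258, adjusted p 0.00425) with overlapping groups, and Pdcd1 rose by 0.82 (SE 0.239, adjusted p 0.00947) from between -6.59 and -5.95 to between -5.93 and -4.92. The call of Pdcd1 was lost in 9 of the 12 fits that left out 1 array (0.71 to 0.87, adjusted p 0.0128 to 0.0271), without the filter on dim probes, with trended, robust variances, with a replicate block (0.82, adjusted p 0.0188), with the slide as a fixed block, in the deposited table, without the arrays high in Alb, with similar arrays averaged and relative to Cd3d and Cd3g alone (0.96, adjusted p 0.0118). That of Havcr2 was lost with the slide as a fixed block and without the arrays high in Alb. Foxp3 was between -6.45 and -5.70 and between -6.94 and -5.46, a difference of -0.18 (SE 0.264, 95% confidence interval -0.74 to 0.38, adjusted p 0.550).

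The transcripts of Cd4, Cd8a and Cd8b1 did not move together in irradiated young mice, so the choice of reference mattered. Relative to the Cd3 genes, Cd4 rose by 1.02 (adjusted p 0.00348) while Cd8a fell by 1.67 (adjusted p 8.70e-05) and Cd8b1 fell by 1.40 (adjusted p 0.00478) in irradiated young mice. Cd4 is also carried by some dendritic cells and macrophages. With Cd4 as the reference, Pdcd1 gave -0.20 and Havcr2 gave 0.00, and Foxp3 gave -1.20 and was called lower (adjusted p 0.0276). In irradiated old mice 0 of the 9 members passed relative to the Cd3 genes by limma (8.80% of all genes did), with 1 of 9, Cd274, at an unadjusted p < 0.05 (1.36, SE 0.614, adjusted p 0.161).

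Age was compared first in unirradiated mice. Relative to the array median the median change of all genes from young to old was 0.63, and 63.9% of all genes were DEGs, 75.9% of them higher in old mice. With 4 other scalings the median change of all genes lay between -0.08 and 0.14 and the share of DEGs that were higher fell to between 17.2% and 44.8%. Changes with age in unirradiated mice are therefore given below together with the change minus the median change of all genes.

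**Figure D5:**
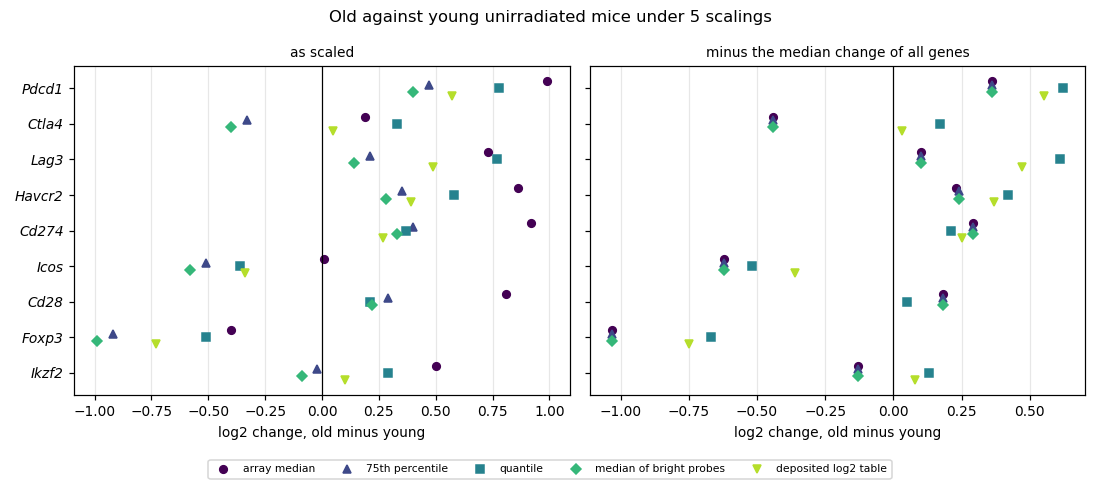
Log2 difference of old minus young unirradiated mice for the 9 tested genes under 5 scalings of the arrays, as scaled (left) and after subtracting the median change of all genes (right), with the genes and probes of the array-median scaling, except that the deposited table lacks Cd28 and has another probe for Icos. On the right, Foxp3 and Icos are the 2 lowest genes under the scalings that used the same Icos probe, which leaves out the deposited table.

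Cd274 was between 4.08 and 4.65 in old and between 3.0 and 4.00 in young unirradiated mice, without overlap, a difference of 0.92 (SE 0.18, adjusted p 0.000492 by limma). It was the 1 of 9 members that passed, against 48.5% of all genes called higher and 15.4% called lower, and 48.6% of all genes did not overlap. Minus the median of all genes the difference was 0.29. Under the other scalings it was 0.27 to 0.40 and passed in none of the 4 (adjusted p 0.0559 to 0.293).

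Foxp3 was the 1 member with a lower mean in old mice relative to the array median, between 0.27 and 0.56 (median 0.47) against between 0.52 and 1.03 (median 0.86). The ranges overlapped only between the lowest young and the highest old mice. Relative to the array median the difference was -0.40 (SE 0.129, adjusted p 0.0115) and missed the threshold with a p of 0.00772, and minus the median of all genes it was -1.03. Under the 4 other scalings it was called, at -0.92, -0.51, -0.99 and -0.73. Icos gave 0.01 relative to the array median (SE 0.163) and -0.62 minus the median of all genes. The same probe gave -0.51 with the 75th percentile and -0.58 with the median of bright probes, both called, and -0.36 with quantile normalization, not called (adjusted p 0.0497). Under these 3 scalings the second probe passed the 1.5-fold filter and stood for Icos in its place, and it gave -0.59, -0.66 and -0.61, each called.

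The other members did not pass in unirradiated mice. Havcr2 gave 0.86 (SE 0.302, adjusted p 0.0184), Cd28 gave 0.81 (SE 0.33, adjusted p 0.0371) and Pdcd1 gave 0.99 (SE 0.610, adjusted p 0.151), and minus the median of all genes these were 0.23, 0.18 and 0.36. Lag3, Ikzf2 and Ctla4 gave 0.73, 0.50 and 0.19, and 0.10, -0.13 and -0.44 minus the median of all genes. The direction of Ikzf2 and Ctla4 turned with the 75th percentile (-0.02 and -0.33) and the median of bright probes (-0.09 and -0.40). Tigit was well above background in 0 of 6 young and 4 of 6 old unirradiated mice. With young values raised to the background limit where they lay below it, the old mean was 1.57-fold the young mean. In the fit without the filter its difference was 2.04 (SE 0.723, adjusted p 0.0303), or 1.75 minus the median of all genes. This difference missed the threshold with a p of 0.0140 while 40.5% of all genes were called. Cd4 changed by -1.56 in old mice (adjusted p 3.19e-06; -2.19 minus the median of all genes) without overlap. Relative to the Cd3 genes 0 of the 9 members passed by limma (14.9% of all genes did; 0 of 9 at an unadjusted p < 0.05), and Cd4 was lower by 1.81 (adjusted p 0.00163).

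Counts of related genes in unirradiated mice stand beside the 48.5% of all genes that were called higher and the 15.4% called lower relative to the array median, shares that moved with the scaling. Of 12 further inhibitory receptors 8 were higher in old mice, with a median of 1.10, or 0.47 minus the median of all genes. Lilrb4a was higher by 2.26 (adjusted p 1.99e-05) and Pilra by 1.58 (adjusted p 4.71e-05), or 1.63 and 0.95 minus the median of all genes. Of the interferon gamma response genes 13 of 20 were higher, with B2m at 1.22 and Irf1 at 1.11, or 0.59 and 0.48 minus that median. The ligands had 13 of 17 higher and 2 lower, with Lgals3 at 1.54, or 0.91 minus that median. Costimulatory receptors gave 2 higher and 1 lower of 11, regulatory T cell genes 6 higher and 2 lower of 20, genes downstream of CD28 and ICOS 21 higher and 1 lower of 29, and the transcription factors 8 higher and 1 lower of 18.

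In irradiated mice, old and young animals differed most for Pdcd1 and Lag3. Pdcd1 was between -0.75 and 1.08 (median 0.48) in young and between 0.42 and 4.53 (median 2.21) in old irradiated mice, with 5 old mice above all young ones. The difference was 2.23 (SE 0.653, 95% confidence interval 0.82 to 3.63) with p 0.00443 and an adjusted p of 0.0894, so it did not pass. Lag3 was well above background in 0 of 6 young and 5 of 6 old irradiated mice. With young values raised to the background limit where they lay below it, the old mean was 3.44-fold the young mean. The difference did not pass (95% confidence interval of the fit 0.77 to 3.70 on the log2 scale, adjusted p 0.0960 by limma). Without old irradiated replicates 4 and 6 the difference was 1.26 for Pdcd1 (adjusted p 0.0381, not called). The old mean of Lag3, set against the young values raised in the same way, was then 1.59-fold the young mean (adjusted p 0.0163 of the fit).

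Cd28 gave 1.13 (SE 0.339, adjusted p 0.0940), with the old mice between 4.96 and 5.55 and the young between 2.84 and 5.0. Tigit was between -2.09 and -0.92 in young and between -0.83 and 2.50 in old irradiated mice, without overlap, as for 5.05% of all genes tested, and gave 1.95 in the fit without the filter (adjusted p 0.148, with 0.407% of all genes called). Cd274 gave 0.19 (SE 0.423, adjusted p 0.846) and Foxp3 0.55 (SE 0.591, adjusted p 0.647). All 9 tested members had a positive difference, with a median of 0.93 against 0.20 for all genes. Without old irradiated replicates 4 and 6, however, the mean of Foxp3 was lower in old than in young irradiated mice (-0.83 against -0.52). The other tested members kept a higher mean in old mice. Cd274 means were then 5.79 in old and 4.997 in young irradiated mice, and Tigit means were -0.33 and -1.42. With replicates 4 and 6 kept, 0 of 9 passed by limma and 1.99% of all genes did. An unadjusted p < 0.05 was reached by 3 of 9 (Pdcd1, Lag3 and Cd28) and by 21.4% of all genes. With 1 fit of all 24 arrays, which shares 1 estimate of the spread, these 3 passed. That fit kept old irradiated replicates 4 and 6, and no young irradiated signal of Lag3 was well above background. The share of all genes called in that fit is not given here, so the 3 calls cannot be set against it. Relative to the Cd3 genes 0 of 9 passed by limma (4.93% of all genes did; 2 of 9 at an unadjusted p < 0.05), with Pdcd1 at 1.39 (adjusted p 0.152) and Lag3, whose young values were not well above background, at 1.40 (adjusted p 0.197), and T cell markers were higher in old irradiated mice for 2 of 11, with a median of 1.09.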

How the data were processed

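Agilent Feature Extraction 12.0.2 had turned single-dye (Cy3) images into the deposited intensity values, which are background-subtracted and not scaled between arrays. A deposited table of log2 values, already normalized by the authors, served only as an alternative. Intensities of spots flagged as non-uniform were dropped, and log2 values were centred on each array's median. Probes flagged or not above background on at least 25% of the 24 arrays were dropped, as were probes differing 1.5-fold from their median on under 20% of the arrays, after which the probe with the highest mean stood for each gene (17805 in all). Groups were compared with limma 3.58.1 in R 4.3.3, two-sided, requiring a p under 0.005 and a Benjamini-Hochberg adjusted p under 0.05, as the methods set for their random variance test. Ratios to Cd3d, Cd3e and Cd3g were fitted in the same way. The code was tested on simulated data. Named genes were the members, the 4 genes with the highest signal in each list, and the 2 genes most like each member; other genes named here were chosen after their values were seen. Members and lists were chosen with earlier results of these data known. Alternatives covered the scaling, background, filters, test, slide, replicate block and left-out arrays. Array coordinates are those of the files (mm9), and promoter sequences are RefSeq's (GRCm38.p6). The number of arrays and the signal over background limit the precision.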

Additional observations from a re-analysis of the deposited data

Results flagged for a closer look

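Pdcd1 in old unirradiated replicate 2 was at 4.80, while the other 5 mice of that group lay between 0.14 and 1.72. The gap to the nearest mouse was 0.662 of the group's range, above Dixon's 95% critical value for 6 samples. Of the 40 groups checked (10 genes in 4 groups), 1 was marked in this way, and chance marks about 1 in 20.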

How the results depend on the processing

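Counts in this section are of members alone and are given without the share of all genes called in each fit. The rise of Cd274 in irradiated young mice was 1.41 to 1.85 under the alternatives other than leaving out 1 array. The 2 members called there became 1 with normexp background correction (3 members tested) or 1 fit of all arrays, 4 with the slide as a random block, 0 with the slide as a fixed block, and 2 to 3 when 1 array was left out. They became 3, with Ctla4 at -0.79, without the arrays high in Alb, where no irradiated signal of Ctla4 was well above background. In old mice the 0 called became 1 with the 75th percentile or the median of bright probes, and 2 without old irradiated replicates 4 and 6. For age in unirradiated mice, the 1 called became 2 with the 75th percentile, quantile normalization or the median of bright probes, 0 with normexp or 1 fit, 3 with the slide as a random block, and 1 to 2 with 1 array left out (2, with Foxp3, without young unirradiated replicate 1). Icos reversed to -0.59, -0.61 and -0.66 with those 3 scalings, which also changed its probe. With genes and probes held fixed, a choice made after seeing the data, it reversed to -0.51 and -0.58 with the 75th percentile and the median of bright probes, where 2 members were called, and 1 was called with quantile normalization. Held fixed in the same way, the 0 called in irradiated old mice became 1 (Cd274) with each of the 3. For age in irradiated mice, the 0 called became 3 with 1 fit or the slide as a random block and 1 without replicates 4 and 6. The interaction had 1 (Foxp3, 1.70) without the arrays high in Alb. Of the old irradiated group that fit kept only replicates 1, 4 and 6, with Foxp3 at -0.29, 1.68 and 1.82. Without replicates 4 and 6 the interaction of Foxp3 was not called, as given above.

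Relative to the Cd3 genes, the 3 called in irradiated young mice became 1 with normexp, the slide as a fixed block or without the arrays high in Alb, and 2 to 4 with 1 array left out. Pdcd1 kept its call in 6 of 12 planned, 3 of 12 leave-one-out and 0 of 3 added alternatives. In old mice the 0 became 1 without replicates 4 and 6. For age in unirradiated mice the 0 became 1 without a filter on dim probes, 6 with the slide as a random block, 1 relative to Cd2, Cd6, Lat, Trat1 and Themis, and 9 relative to Cd4, and in irradiated mice it became 2 with the slide as a random block and 4 relative to Cd4. Relative to Cd4, in irradiated young mice Pdcd1 reversed to -0.20 and Havcr2 to 0.00, Foxp3 was called (-1.20), and for age in unirradiated mice Ctla4, Icos and Foxp3 reversed to 1.75, 1.57 and 1.16. The cause of these changes was not tested, except that Cd4 itself fell with age. Taking Cd4 as the reference moves the change of every gene in a comparison by the same amount. Counts relative to Cd4 therefore do not set the members apart from other genes.

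Replicate numbers did not pair the samples: same-numbered mice had correlations of deviations between -0.60 and 0.58. With a replicate block, age in unirradiated mice had 2 members called in place of 1. The within-slide correlation in the random-block fits was between -0.283 and -0.013, that is, beyond the group means, arrays of a slide were no more alike than others. Most slides held a single group, so this correlation cannot show slide effects that coincide with a group. Of 175 values of single members called as reported, 142 stayed called in the same direction, 31 lost the call and 2 reversed.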

Other observations

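Pairs of arrays within a group differed in how alike they were. The spread of the log2 difference was 0.147 for young irradiated replicates 2 and 5 and 0.149 for old unirradiated replicates 1 and 6, at 1.59 and 1.57 times the spread expected from repeat spots on 1 array. With each such set of similar arrays averaged, the rise of Cd274 in irradiated young mice was 1.51 (adjusted p 0.000963 by limma) and the fall of Foxp3 gave a change of -1.39 (adjusted p 0.00339).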
